A study of Mus musculus with 12 samples.

Results

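Hearts of mice infused with angiotensin II (Ang II) and given EHP-101 were compared with hearts of saline-infused mice, by RNA sequencing across all genes with enough reads. The comparison used 6 of the 12 libraries of the series: 3 of Ang II with EHP-101 and 3 of Control. All mice were C57BL/6 males of 8 weeks, and subcutaneous osmotic pumps delivered Ang II or saline for 28 days. In the last 2 weeks the EHP-101 group received EHP-101 by mouth at 20 mg/kg, and the Ang II group, which is set beside it below, received vehicle. The series also holds 3 libraries of Ang II with losartan at 0.6 g/L in the drinking water. They entered the choice of genes to test, the scaling and the estimate of the spread, and they are not compared here. The Control titles carry the words Ang II control as well, and these libraries were taken as the saline group. Whether the Control mice were dosed with vehicle, and which part of the heart was sampled, is not clear from the labels. Of 47729 genes in the count table, 15336 had enough reads to be tested. Since nothing in the labels says that replicates came from different animals, p-values refer to the spread among these samples, which could be technical.

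Ang II is the effector peptide of the renin-angiotensin system: through its AT1 receptor it constricts vessels, raises blood pressure and drives growth of heart muscle cells and scarring between them. In the scarring heart, resident fibroblasts turn into matrix-secreting cells that lay down fibrillar collagen, crosslink it and coat it with matricellular proteins, while stressed heart muscle cells switch on genes of the fetal heart. EHP-101 is an oral formulation of a cannabidiol derivative that acts on the nuclear receptor PPARγ and on the cannabinoid receptor CB2 and also engages the hypoxia-inducible factor (HIF) pathway. A comparison of treated, infused hearts with saline hearts shows what still differed from the uninfused state at the end of treatment, and it cannot by itself separate the infusion from the drug.

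The label heart held in all 6 libraries. Myh6, the main myosin of the adult mouse heart, had at least 9040 CPM in each (counts scaled to the size of the library), and Myl2, the ventricular light chain, at least 6949 CPM. Total counts were 22745721 to 23521895 in the EHP-101 libraries and 22155418 to 23766752 in the Control libraries. Control replicate 2 stood apart: on the first principal component (35.3% of the variance) it scored -84.37, and the remaining 11 scored from -12.72 to 32.41. Its tested oxidative phosphorylation genes summed to 51189 CPM, against 33947 and 31041 CPM in Control replicates 1 and 3. Atrial markers also varied within the groups, and their sums were 3291, 3301 and 3721 CPM in the EHP-101 libraries and 3644, 2193 and 5046 CPM in the Control libraries.

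At a Benjamini-Hochberg adjusted p under 0.05 in edgeR's quasi-likelihood test, 61 genes differed between the EHP-101 and Control hearts. These are 0.398% of the genes tested. Of them, 46 rose (0.3% of the genes tested) and 15 fell (0.0978%). The lists of collagens, matricellular proteins, collagen-crosslinking enzymes, matrix proteases and small proteoglycans hold 5, 6, 2, 1 and 1 of the higher genes, and the list of stressed heart muscle holds 4. The lower set holds the replication genes Mcm2 and Mcm5, the macrophage marker Folr2, a sodium channel subunit and several genes with little known role in the heart. With an unadjusted p under 0.05 the count was 2593 genes, or 16.9% of those tested, with 1343 higher (8.76%) and 1250 lower (8.15%). With the replicate number as a block, 36 genes passed, 26 higher and 10 lower, and 32 of them were among the 61.

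**Figure D1:**
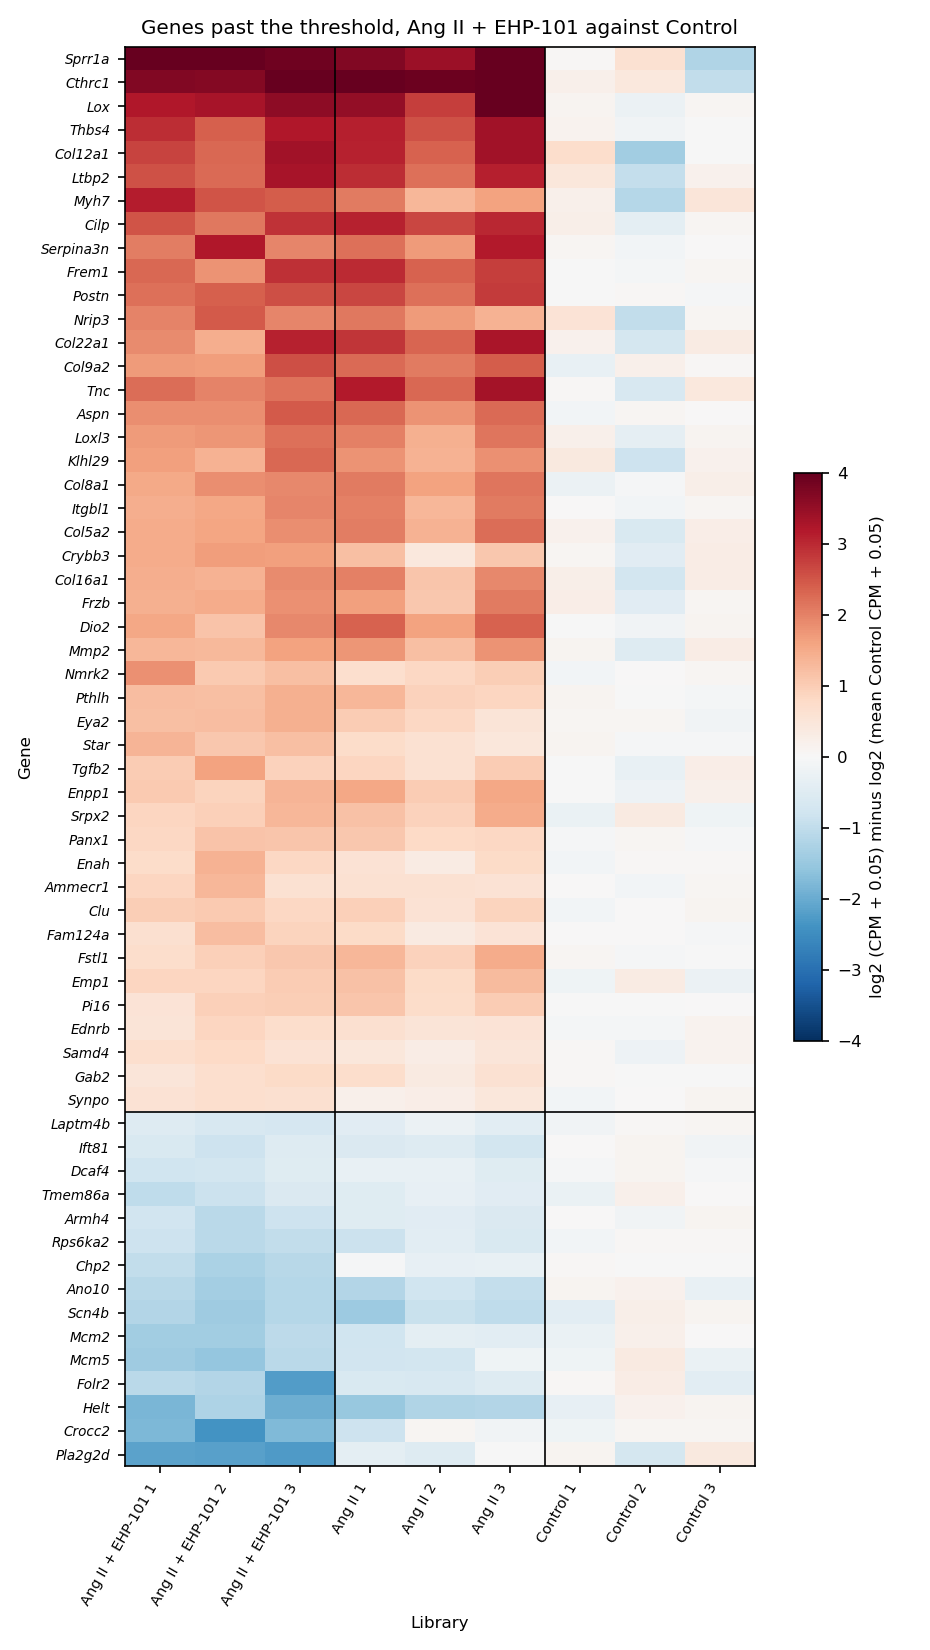
Heat map of 60 of the 61 genes past the threshold (rows, ordered by fold change) in 3 EHP-101, 3 Ang II and 3 Control libraries (columns); colour is log2 of CPM plus 0.05 minus log2 of the mean Control CPM plus 0.05, capped at 4 in either direction. Rows were chosen by adjusted p in this comparison, which favours the same colour in all 3 EHP-101 libraries. The 45 higher genes shown are red and the 15 lower genes blue in all 3 EHP-101 libraries. The Ang II libraries are shown beside them. They were not in the contrast that chose the rows, but they shared its filter, scaling and estimate of the spread.

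How many genes passed depended on single libraries. The count was 22, 12 and 9 without EHP-101 replicate 1, 2 or 3, and 5, 35 and 5 without Control replicate 1, 2 or 3. Of the 35 genes found without Control replicate 2, 16 were among the 61, and 45 of the 61 lost the call there. Libraries of the other groups count too, since they share the filter, the scaling and the estimate of the spread. The count of genes was 27, 40 and 32 without Ang II replicate 1, 2 or 3, and 57, 28 and 62 without losartan replicate 1, 2 or 3. Of the 61 genes, 4 passed in all 12 of these fits, Cilp, Col8a1 and Loxl3 among them, and the other 57 genes lost the call in at least 1. Most of those 57 lost it in several: 5 genes passed in 0 of the 12 fits, 10 in 1 and 9 in 2. None of the 61 changed sign in any fit that was run. In all 61 the 3 EHP-101 libraries lay outside the range of the 3 Control libraries, which was so for 21.1% of the genes tested (10.7% higher and 10.4% lower). Some genes below also had their EHP-101 libraries apart from those of Ang II, as did 16.8% of the genes tested. Genes chosen for their EHP-101 levels against Control are favoured to show such a gap. Beside the adjusted p of a gene, the words up to mark its highest adjusted p over the 12 left-out fits, with the library whose absence gave it. The call could be lost in other left-out fits as well.

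Matricellular proteins and matrix glycoproteins are secreted proteins that sit in the matrix and tune how cells adhere to it and signal. Of 32 such genes tested, 6 rose and none fell, against 0.3% and 0.0978% of all genes tested. An unadjusted p under 0.05 in the higher direction was found for 24, against 8.76% of all genes tested. The median log2 fold change of the 32 was 0.96, or 0.71 without Control replicate 2, against -0.03 over all genes tested. Cilp, a matrix glycoprotein of fibrotic heart, had 272, 207 and 351 CPM in the EHP-101 libraries and 56.6, 36.4 and 50.1 CPM in the Control libraries. The lowest EHP-101 library thus lay well above the highest Control library, and the difference was 5.8-fold (log2 fold change 2.54 ± 0.29 SE, adjusted p = 0.00503, edgeR; up to 0.038 without EHP-101 replicate 3). Postn encodes periostin, the best known marker of activated fibroblasts, and it had 561, 647 and 741 CPM against 121, 128 and 119.6 CPM in Control. Its Control libraries lay within a few CPM of each other, all EHP-101 libraries were far above them, and it rose 5.29-fold (adjusted p = 0.0269, edgeR). Postn passed in 6 of the 12 left-out fits, and the highest adjusted p of these fits was 0.113, without Control replicate 2.

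Thbs4, a thrombospondin of the stressed heart, had 148, 99.7 and 178 CPM in the EHP-101 libraries and 21.1, 17.4 and 18.9 CPM in the Control libraries, a 7.41-fold rise (adjusted p = 0.00822; up to 0.0698 without Control replicate 2). Ltbp2, which binds to microfibrils, had 82.9, 69.1 and 139 CPM against 19.4, 7.43 and 16 CPM in Control (adjusted p = 0.0176; up to 0.0751 without Control replicate 3). In both genes replicate 3 was the highest EHP-101 library and replicate 2 the lowest. Tnc, tenascin-C, a matrix protein made during repair, had 14.7, 12.4 and 14.1 CPM in the EHP-101 libraries, 28.6, 15.3 and 31.6 CPM in those of Ang II alone and 3.17, 1.99 and 4.13 CPM in the Control libraries. It rose 4.39-fold over Control (adjusted p = 0.0208; up to 0.0848 without Control replicate 1), and every EHP-101 library lay below every Ang II library (unadjusted p = 0.0104, adjusted p = 0.479, EHP-101 against Ang II). Cthrc1, a secreted protein of injured tissue, had 6.72, 6.5 and 17.4 CPM in the EHP-101 libraries and was barely detected in Control, with 0.543, 0.646 and 0.209 CPM. EHP-101 replicate 3 was far above the other two, and the log2 fold change of 4.47 was 3.84 without it. The adjusted p was 0.0271 in edgeR, 0.0626 with the replicate block and 0.131 without Control replicate 2. Ccn2, a matricellular target of mechanical and growth-factor signals, had 276, 323 and 296 CPM in the EHP-101 libraries and 100.9, 95.2 and 73.1 CPM in the Control libraries and did not pass (adjusted p = 0.0606).

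Collagens form the fibres and networks of the matrix. Of 24 collagen genes tested, 5 rose and none fell, against 0.3% and 0.0978% of all genes tested. An unadjusted p under 0.05 in the higher direction was found for 14, against 8.76% of all genes tested. The median log2 fold change was 0.87, and 0.52 without Control replicate 2. Col8a1, a short-chain network collagen, had 133, 168 and 172 CPM in the EHP-101 libraries and 39.3, 44.2 and 54.2 CPM in the Control libraries. The groups were far apart, with a 3.44-fold rise (log2 fold change 1.78 ± 0.20 SE, adjusted p = 0.00503; up to 0.038 without EHP-101 replicate 3). Col5a2, a chain of type V collagen that starts fibril assembly, had 196, 206 and 254 CPM against 78.5, 45.6 and 84 CPM in Control (adjusted p = 0.0255; up to 0.0848 without Control replicate 1). Control replicate 2 was the lowest Control library for it, and this was also so for Col12a1 and Col16a1, which coat collagen fibrils, and for Col22a1, a collagen of tissue junctions.

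Those 3 genes rose by log2 fold changes of 2.84, 1.59 and 2.33 (edgeR, adjusted p = 0.0306, 0.0422 and 0.0422). Col12a1 lost the call with the replicate block (adjusted p = 0.0519), and the highest adjusted p for the 3 genes was 0.106 without Control replicate 2, 0.115 without EHP-101 replicate 3 and 0.119 without Control replicate 1. For Col22a1 the log2 fold change was 1.70 without EHP-101 replicate 3. Col9a2, a collagen chain best known from cartilage and not on that list, averaged 1.68 ± 0.673 CPM in EHP-101 hearts and 0.366 ± 0.0696 CPM in Control hearts (SD, n = 3 each; adjusted p = 0.0472; 0.0914 with the replicate block; up to 0.148 without Control replicate 1). The main fibrillar collagens of scar did not pass the test. Col1a1 had 216, 223 and 369.6 CPM in the EHP-101 libraries and 146, 51.1 and 143 CPM in the Control libraries (adjusted p = 0.157). Col3a1 had 538, 796 and 934 CPM against 451, 246 and 478 CPM in Control (adjusted p = 0.182). In both, all EHP-101 libraries lay above all Control libraries, Control replicate 2 was far below the other Control libraries, and the EHP-101 libraries spread widely.

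Lox, lysyl oxidase, which crosslinks collagen and elastin, had 48.6, 52.1 and 63.6 CPM in the EHP-101 libraries and 5.68, 4.52 and 5.63 CPM in the Control libraries. No EHP-101 library came near the Control range, and Lox rose 10.3-fold (adjusted p = 0.00822; up to 0.0801 without Control replicate 1). Its relative Loxl3 had 29, 30.8 and 41.6 CPM against 10.2, 7.0 and 9.64 CPM in Control, a 3.76-fold rise (log2 fold change 1.91 ± 0.23 SE, adjusted p = 0.00822; up to 0.0384 without Control replicate 3). They were the 2 of 23 such enzymes that passed, against 0.398% of all genes tested. An unadjusted p under 0.05 was found for 10 in the higher direction, against 8.76% of all genes tested, and for none in the lower, and the median log2 fold change was 0.39. Of 23 matrix proteases and inhibitors 1 passed, against 0.398% of all genes tested. Mmp2, a gelatinase secreted by fibroblasts, had 197, 195 and 244 CPM in the EHP-101 libraries and 84.9, 55.9 and 97 CPM in the Control libraries (adjusted p = 0.0255; up to 0.0852 without Control replicate 1). Timp1, the inhibitor, had 16.4, 14.7 and 22.1 CPM against 5.39, 8.29 and 3.63 CPM in Control (adjusted p = 0.12). Of 11 small leucine-rich proteoglycans, which bind collagen and space its fibrils, 1 passed, beside the same share of all genes. This was Aspn, with 144, 144 and 220.3 CPM in the EHP-101 libraries and 37, 42.3 and 40.0 CPM in the Control libraries (adjusted p = 0.0188; up to 0.0848 without Control replicate 1).

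**Figure D2:**
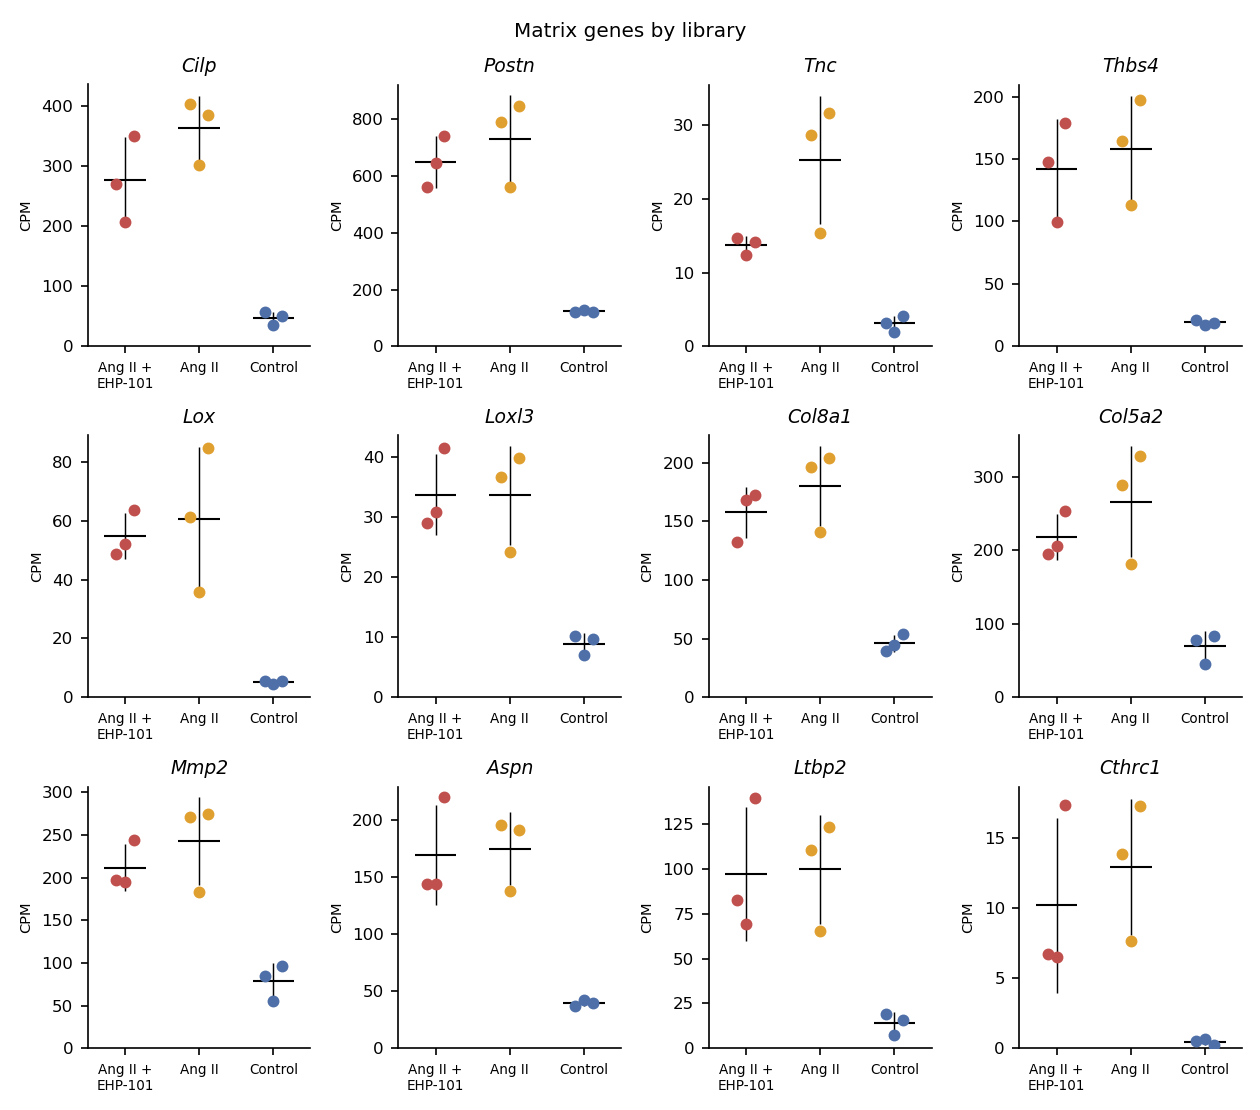
CPM (vertical axis, linear, from 0) of 12 matrix genes in each EHP-101, Ang II and Control library; points are libraries, horizontal lines group means and vertical lines 1 SD over 3 libraries. For every gene shown the 3 EHP-101 libraries lie above the 3 Control libraries, and for Tnc they also lie below the 3 Ang II libraries. Of all genes tested, 16.8% had the EHP-101 and Ang II libraries apart in either direction.

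Further genes rose outside the matrix lists. Itgbl1, a secreted integrin-like protein, had 50.1, 53.9 and 71.8 CPM in the EHP-101 libraries and 18.7, 16.9 and 19.5 CPM in the Control libraries (adjusted p = 0.0208; up to 0.0848 without Control replicate 1). Frem1, a basement membrane protein, averaged 3.54 ± 1.42 CPM in EHP-101 hearts and 0.629 ± 0.0378 CPM in Control hearts (SD, n = 3 each; adjusted p = 0.0269; up to 0.0966 without Control replicate 1). Fstl1, a secreted follistatin-like glycoprotein, Srpx2, a secreted sushi-repeat protein, and Pi16, a marker of resting fibroblasts, rose by log2 fold changes of 0.92, 1.07 and 0.84 (edgeR, adjusted p = 0.0422, 0.0472 and 0.0395). All 3 lost the call with the replicate block (adjusted p = 0.0776, 0.0847 and 0.0759), and their highest left-out adjusted p was 0.129 without EHP-101 replicate 2, 0.146 without Control replicate 1 and 0.146 without EHP-101 replicate 2. Of 21 fibroblast markers 2 rose, against 0.3% of all genes tested: Pi16 and Cilp, which is also on the matricellular list. At an unadjusted p under 0.05, 6 were higher and none lower, against 8.76% and 8.15% of all genes tested. The markers summed to 5130, 5503 and 5387 CPM in the EHP-101 libraries and 5127, 3427 and 4521 CPM in the Control libraries. EHP-101 replicate 1 and Control replicate 1 were almost equal in that sum. In bulk tissue more cells of a type and more RNA per cell cannot be told apart, here and in the results that follow. The part of fibroblast number in the matrix genes was not tested. Of 15 contractile genes of smooth muscle and myofibroblasts 0 passed in edgeR, and 6 had an unadjusted p under 0.05 in the higher direction, against 8.76% of all genes tested. DESeq2 called 1 of the 15 higher, beside 321 of all 15336 genes tested. Acta2, smooth muscle actin, had 219, 155 and 169.8 CPM in the EHP-101 libraries and 189, 187 and 161 CPM in the Control libraries, which overlapped (adjusted p = 0.976).

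In GRCm38 with GENCODE M21, Loxl3 (ENSMUSG00000000693) covers chromosome 6 from 83034173 to 83052562, Col8a1 (ENSMUSG00000068196) covers chromosome 16 from 57624258 to 57754737 and Cilp (ENSMUSG00000042254) covers chromosome 9 from 65265180 to 65280605. Myh7 (ENSMUSG00000053093) lies on chromosome 14 from 54970684 to 54994626, Mcm2 (ENSMUSG00000002870) on chromosome 6 from 88883474 to 88898780 and Mcm5 (ENSMUSG00000005410) on chromosome 8 from 75109569 to 75128439. The library kit keeps no strand, and 14 of the 61 genes share exon bases with a gene on the opposite strand, which leaves their levels uncertain by those reads. Among them are Loxl3, with 535 of 4603 exon bases shared, Myh7, with 1149 of 8616, and Folr2, with 975 of 1546.

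Tgfb2, a ligand of the transforming growth factor beta family, which drives fibroblast activation, had 23.8, 36.6 and 22.5 CPM in the EHP-101 libraries against 11.9, 9.58 and 14.2 CPM in Control (adjusted p = 0.0304; 0.0613 with the replicate block; up to 0.0985 without Control replicate 1). EHP-101 replicate 2 was its highest library. Of 26 genes of transforming growth factor beta signalling Tgfb2 alone passed in edgeR, against 0.398% of all genes tested. An unadjusted p under 0.05 in the higher direction was found for 11, against 8.76% of all genes tested. Tgfb1, the ligand most often named in fibrosis, had 18.8, 19.9 and 23.2 CPM in the EHP-101 libraries and 22, 32.7 and 21.7 CPM in the Control libraries (adjusted p = 0.36).

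Frzb, a secreted antagonist of WNT ligands, had 26.9, 27.9 and 35.2 CPM in the EHP-101 libraries and 12.1, 7.27 and 10.6 CPM in the Control libraries (adjusted p = 0.0304; up to 0.0849 without EHP-101 replicate 3). Dio2, which converts thyroid hormone to its active form, had 22.5, 16.7 and 29.2 CPM in the EHP-101 libraries, 39.6, 23.6 and 39.1 CPM in those of Ang II alone and 7.6, 6.94 and 8.3 CPM in the Control libraries (adjusted p = 0.0188 against Control; up to 0.0848 without Control replicate 1). Serpina3n, an acute phase protease inhibitor, had 66.6, 147 and 62.3 CPM against 16.9, 14.9 and 16.2 CPM in Control (adjusted p = 0.0394). EHP-101 replicate 2 was far above the others for Serpina3n, and the call was lost with the replicate block (adjusted p = 0.103). Serpina3n passed in 4 of the 12 left-out fits, and the highest adjusted p of these fits was 0.175, without Control replicate 2. Pthlh, a hormone-like vasodilator peptide, Ednrb, a receptor of endothelin, and Enpp1, an enzyme that makes the mineralisation inhibitor pyrophosphate, rose by log2 fold changes of 1.32, 0.70 and 1.11. Their adjusted p was 0.0306, 0.0311 and 0.0381 in edgeR and 0.0543, 0.0614 and 0.0547 with the replicate block, and up to 0.0985, 0.119 and 0.119, each without Control replicate 1. Clu, the secreted chaperone clusterin, had 1218, 1274 and 1112 CPM in the EHP-101 libraries and 569.6, 628 and 664 CPM in the Control libraries (adjusted p = 0.0472; 0.0847 with the replicate block; up to 0.154 without EHP-101 replicate 2). Clu is also 1 of the 18 atrial markers, whose median log2 fold change was -0.45, or -0.88 without Control replicate 2. The adaptor Gab2, the channel Panx1 and the membrane protein Emp1 also rose (adjusted p = 0.0472, 0.0359 and 0.0424; 0.0847, 0.0706 and 0.0844 with the replicate block). Their highest left-out adjusted p was 0.15 without EHP-101 replicate 2, 0.12 without Control replicate 1 and 0.133 without Control replicate 1. Higher too were Ammecr1, Fam124a, Klhl29, Nrip3 and the lens crystallin Crybb3, whose log2 fold changes were 0.97, 0.94, 1.85, 2.36 and 1.65 (edgeR, adjusted p = 0.0304, 0.046, 0.0472, 0.0422 and 0.034). All 5 lost the call with the replicate block (adjusted p = 0.0543, 0.0776, 0.0736, 0.0759 and 0.0611). The highest left-out adjusted p was 0.0985 for Ammecr1 and 0.109 for Crybb3 without Control replicate 1, 0.15 for Fam124a and 0.136 for Nrip3 without EHP-101 replicate 2, and 0.129 for Klhl29 without EHP-101 replicate 3.

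Among genes of stressed heart muscle, 4 of 23 rose and none fell, against 0.3% of all genes tested that rose. An unadjusted p under 0.05 was found for 13 in the higher direction, against 8.76% of all genes tested. The median log2 fold change was 0.64, and it ran from 0.41 without EHP-101 replicate 2 to 1.04 without Control replicate 2. Myh7 encodes the slow myosin of the fetal mouse heart, which returns under load. It had 1721, 1128 and 1049.7 CPM in the EHP-101 libraries, 838, 499 and 601 CPM in those of Ang II alone and 224, 88.5 and 278 CPM in the Control libraries. Every EHP-101 library was above every Ang II and Control library, and Myh7 rose 6.6-fold over Control (log2 fold change 2.72 ± 0.44 SE, adjusted p = 0.0269; up to 0.0966 without Control replicate 1). Nmrk2, a muscle kinase of nicotinamide riboside on the route to NAD, had 38, 22.1 and 24.5 CPM in the EHP-101 libraries, 17.1, 19.1 and 21.3 CPM in those of Ang II alone and 9.81, 10.8 and 11.3 CPM in the Control libraries. It rose 2.65-fold over Control (adjusted p = 0.0128; up to 0.0801 without Control replicate 1), with EHP-101 replicate 1 the highest and replicate 2 close to the Ang II range.

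Sprr1a, a protein that heart muscle cells make under stress, had 3.72, 4.68 and 3.02 CPM in the EHP-101 libraries and 0.167, 0.269 and 0.0417 CPM in the Control libraries. This was the largest log2 fold change of the genes past the threshold, at 4.60 ± 0.74 SE (adjusted p = 0.0258; up to 0.0966 without Control replicate 1), and it rests on few reads in Control. Enah, an actin regulator at the junctions of heart muscle cells, had 254, 404 and 273 CPM against 142, 158 and 159.5 CPM in Control (adjusted p = 0.0338; 0.0611 with the replicate block; up to 0.119 without Control replicate 1). Replicate 2 was the highest of its EHP-101 libraries. Outside the list, Synpo, an actin-associated protein, had 166, 177 and 173 CPM in the EHP-101 libraries and 104, 112 and 119.6 CPM in the Control libraries, which were narrow and apart (adjusted p = 0.0472; 0.087 with the replicate block; up to 0.161 without Control replicate 1). Eya2, a transcriptional co-activator phosphatase of muscle development, and Star, which carries cholesterol into mitochondria, rose on the log2 scale by 1.31 and 1.24 (edgeR, adjusted p = 0.0208 and 0.0346; up to 0.0848 without Control replicate 1 and 0.0985 without Control replicate 1). Samd4, an RNA-binding repressor of translation, rose by 0.69 (adjusted p = 0.036; 0.0731 with the replicate block; up to 0.136 without EHP-101 replicate 2).

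The natriuretic peptides, hormones that stretched heart muscle releases, did not pass. Nppa had 271, 368 and 335 CPM in the EHP-101 libraries and 201, 158 and 396 CPM in the Control libraries (adjusted p = 0.787). Nppb had 322, 595 and 465 CPM against 139, 1111 and 116 CPM in Control (adjusted p = 0.99), and Control replicate 2 was the highest of the 6 libraries and the other Control libraries the lowest. Myh6 had 20344, 22728 and 18372 CPM in the EHP-101 libraries and 19999.9, 9040.5 and 24589.5 CPM in the Control libraries, again with Control replicate 2 apart (adjusted p = 0.739). Of 20 sarcomere and calcium handling genes 0 passed in edgeR, with 1 of them higher and 1 lower by unadjusted p under 0.05 (8.76% and 8.15% of all genes tested). DESeq2 called 1 of the 20 higher, beside 321 of all 15336 genes tested.

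**Figure D3:**
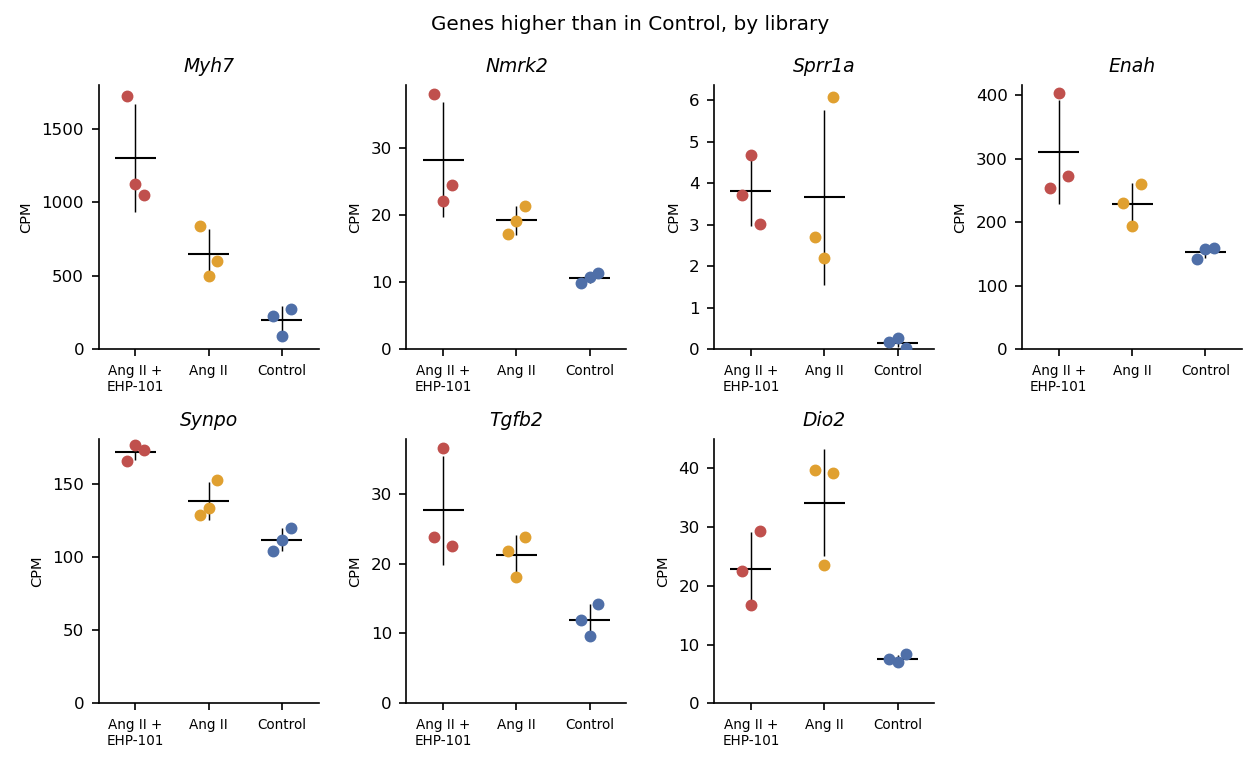
CPM (vertical axis, linear, from 0) of 7 genes that were higher than in Control, in each EHP-101, Ang II and Control library; points are libraries, horizontal lines group means and vertical lines 1 SD over 3 libraries. Myh7, Nmrk2 and Synpo are higher in every EHP-101 library than in every Ang II library, while the Sprr1a and Tgfb2 libraries of these groups overlap. Of all genes tested, 16.8% had the EHP-101 and Ang II libraries apart in either direction, and the choice of genes against Control favours such a gap.

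The promoter of Myh7 is shown because its muscle-specific use depends on a short word, MCAT, that binds factors of the TEAD family. The 250 bases before a RefSeq start were searched on both strands for CATTCC, with RefSeq sequences of GRCm38.p6. The window of Myh7 at chr14:54994627-54994876, on the minus strand, is printed 5′ to 3′ with the word in capitals, as its reverse complement GGAATG:
Myh7: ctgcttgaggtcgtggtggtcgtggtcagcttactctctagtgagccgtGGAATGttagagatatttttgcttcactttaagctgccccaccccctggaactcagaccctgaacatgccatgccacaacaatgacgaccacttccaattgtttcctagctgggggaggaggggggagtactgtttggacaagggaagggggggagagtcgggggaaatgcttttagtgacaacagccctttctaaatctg
The window of a second annotated start of Myh7, chr14:54994550-54994799, overlaps the printed one and begins after the word. The word thus lies outside the 250 bases searched for that start. Of the 61 genes 45 had a window, 53 windows in all. The word was in 4 of 38 windows of higher genes (Dio2, Myh7, Samd4 and Thbs4), or 10.5%, and in 0 of 15 windows of lower genes, against 12.6% of 32851 windows of all genes. In Thbs4 it occurred 2 times with an overlap. A match is a description of letters and not of binding.

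Of the 15 lower genes, Ano10, a membrane protein of the anoctamin family, had the smallest p. It had 32.9, 27.4 and 32 CPM in the EHP-101 libraries and 75.8, 78.5 and 56.7 CPM in the Control libraries. All EHP-101 libraries lay far below Control, and the difference was 2.28-fold, with the higher level in Control (log2 fold change -1.19 ± 0.16 SE, adjusted p = 0.0128; up to 0.0693 without Control replicate 1). Armh4, a membrane protein, had 14.6, 11.8 and 13.9 CPM in the EHP-101 libraries, 17.8, 17.9 and 16.6 CPM in those of Ang II alone and 24.8, 22.5 and 27 CPM in the Control libraries, so that the 3 groups did not overlap (adjusted p = 0.0186 against Control; up to 0.0801 without Control replicate 1). Rps6ka2, a kinase of the growth factor pathway, had 29, 24.5 and 25.8 CPM against 47.9, 53.1 and 52.9 CPM in Control (adjusted p = 0.0338; up to 0.129 without EHP-101 replicate 2).

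Scn4b encodes a beta subunit of the cardiac sodium channel. It had 27.5, 23.4 and 28.2 CPM in the EHP-101 libraries and 46.5, 72.4 and 67.7 CPM in the Control libraries, and it fell by 1.24 on the log2 scale (adjusted p = 0.0366; up to 0.148 without EHP-101 replicate 2). Of 27 ion channel genes of the heart Scn4b alone passed in edgeR, against 0.398% of all genes tested. The median of that list was -0.09, or -0.38 without Control replicate 2. Chp2, a calcium-binding protein related to calcineurin B, had 2.11, 1.73 and 1.93 CPM in the EHP-101 libraries, 4.1, 3.36 and 3.37 CPM in those of Ang II alone and 4.3, 4.14 and 4.13 CPM in the Control libraries (adjusted p = 0.0255 against Control; up to 0.096 without Control replicate 1). The EHP-101 libraries lay below the libraries of both other groups. Laptm4b, a lysosomal membrane protein, and Ift81, which carries tubulin into cilia, had log2 fold changes of -0.60 and -0.65 (edgeR, adjusted p = 0.0472 and 0.0436; 0.0759 and 0.0836 with the replicate block; up to 0.16 and 0.156, both without EHP-101 replicate 2). Tmem86a, an enzyme that breaks down lysoplasmalogen, fell by 0.80 on the log2 scale (adjusted p = 0.0472; up to 0.161 without EHP-101 replicate 2). The other lower genes were Dcaf4, an adaptor of a ubiquitin ligase, the ciliary rootlet gene Crocc2 and the transcription factor Helt, which averaged 10.2 ± 1.27, 0.146 ± 0.0455 and 0.446 ± 0.141 CPM in EHP-101 hearts and 16.1 ± 1.01, 0.71 ± 0.0727 and 1.49 ± 0.277 CPM in Control hearts (SD, n = 3 each). All 3 lost the call with the replicate block (adjusted p = 0.087, 0.0731 and 0.0543), and their highest left-out adjusted p was 0.148 without EHP-101 replicate 2, 0.161 without EHP-101 replicate 2 and 0.117 without EHP-101 replicate 3.

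**Figure D4:**
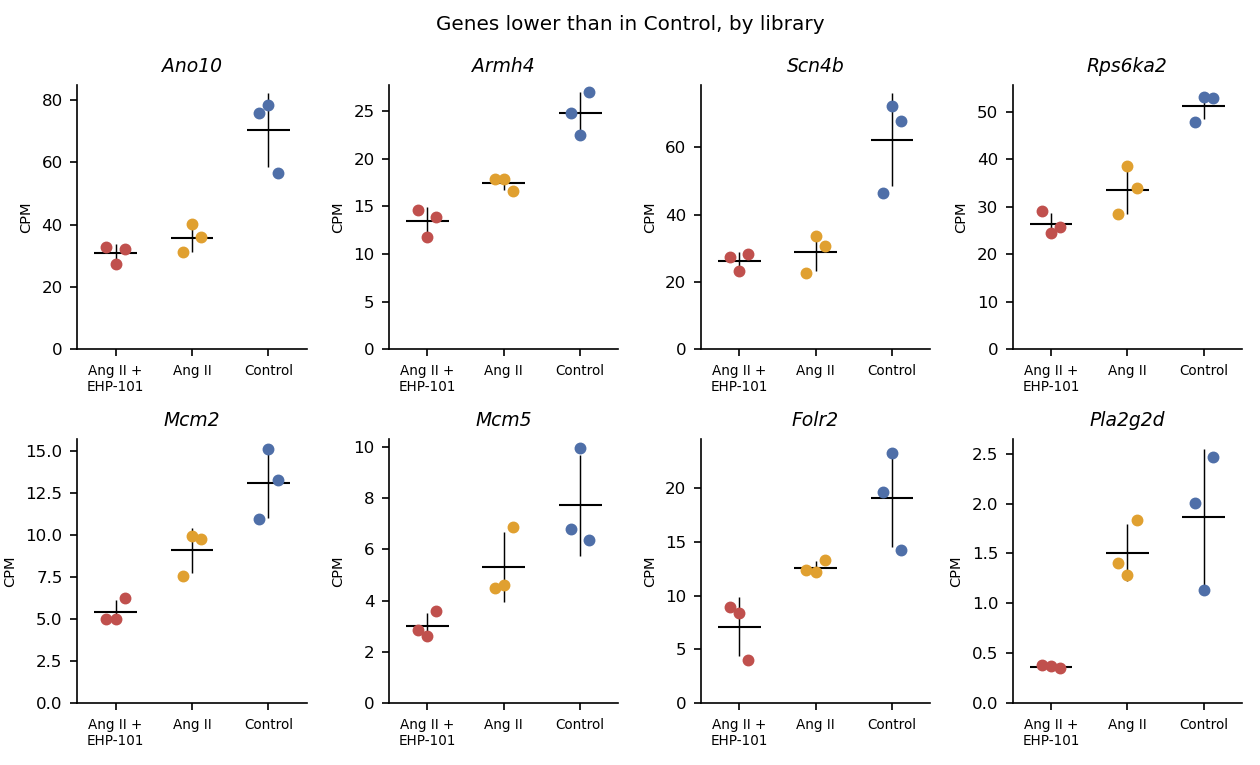
CPM (vertical axis, linear, from 0) of 8 genes that were lower than in Control, in each EHP-101, Ang II and Control library; points are libraries, horizontal lines group means and vertical lines 1 SD over 3 libraries. The 3 EHP-101 libraries lie below the 3 Control libraries in every panel, and below the 3 Ang II libraries for Armh4, Mcm2, Mcm5, Folr2 and Pla2g2d. Of all genes tested, 16.8% had the EHP-101 and Ang II libraries apart in either direction, and the choice of genes against Control favours such a gap.

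DNA replication genes were among the lower ones. Mcm2 and Mcm5 encode subunits of the helicase that licenses and opens replication origins. Mcm2 had 4.99, 5.0 and 6.26 CPM in the EHP-101 libraries, 7.56, 9.97 and 9.78 CPM in those of Ang II alone and 10.9, 15.1 and 13.3 CPM in the Control libraries, with no overlap between any 2 groups. It fell by 1.27 on the log2 scale against Control (adjusted p = 0.0338; up to 0.127 without EHP-101 replicate 2). Mcm5 had 2.88, 2.62 and 3.59 CPM in the EHP-101 libraries and 6.81, 9.96 and 6.38 CPM in the Control libraries and fell by 1.34 (adjusted p = 0.0424; 0.0535 with the replicate block; up to 0.154 without EHP-101 replicate 2). Of 35 cell cycle and mitosis genes these 2 passed, against 0.0978% of all genes tested that fell. An unadjusted p under 0.05 in the lower direction was found for 22, against 8.15% of all genes tested, and for none in the higher direction. The median log2 fold change was -1.03 and it was -0.56 without Control replicate 2, which had the highest sum of the 6. The list summed to 152, 149 and 162 CPM in the EHP-101 libraries and 204, 285 and 217 CPM in the Control libraries, which did not overlap. Top2a, the topoisomerase of dividing cells, had 1.02, 3.65 and 3.41 CPM against 5.55, 11.2 and 6.47 CPM in Control (adjusted p = 0.133).

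The promoters of Mcm2 and Mcm5 are shown because replication genes are known targets of E2F factors. The E2F words searched on both strands were TTTCCCGC, TTTGGCGC, TTTCGCGC and TTTGCCGC, and capitals mark them. The window of Mcm2 is chr6:88898781-88899030 on the minus strand, and that of Mcm5 is chr8:75109259-75109508 on the plus strand, from RefSeq for GRCm38.p6:
Mcm2: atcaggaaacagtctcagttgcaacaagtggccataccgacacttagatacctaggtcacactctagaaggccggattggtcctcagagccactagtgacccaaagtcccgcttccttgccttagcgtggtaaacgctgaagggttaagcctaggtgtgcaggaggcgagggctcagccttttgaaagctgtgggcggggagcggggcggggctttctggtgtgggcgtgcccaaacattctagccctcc
Mcm5: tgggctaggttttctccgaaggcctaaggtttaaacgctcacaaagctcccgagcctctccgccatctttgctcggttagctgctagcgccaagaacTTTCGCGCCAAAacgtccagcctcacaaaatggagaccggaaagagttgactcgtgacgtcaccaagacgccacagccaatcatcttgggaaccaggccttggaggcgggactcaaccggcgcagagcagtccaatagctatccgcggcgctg
Mcm5 held 2 overlapping words, 1 on each strand, and Mcm2 held none of these words. The start used for the Mcm5 window was not matched to a GENCODE M21 transcript of the gene, whereas that of Mcm2 was. An E2F word was in 1 of 15 windows of lower genes (6.67%) and in 0 of 38 windows of higher genes, against 1.86% of the windows of all genes.

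Few genes of immune cells passed the test. Folr2, a folate receptor of resident macrophages, had 8.97, 8.42 and 3.98 CPM in the EHP-101 libraries, 12.3, 12.2 and 13.3 CPM in those of Ang II alone and 19.6, 23.3 and 14.2 CPM in the Control libraries. EHP-101 replicate 3 was the lowest of these 9 libraries, and the fall against Control was 1.41 on the log2 scale (adjusted p = 0.0367; up to 0.103 without Control replicate 1). Pla2g2d, a secreted phospholipase of antigen-presenting cells, had 0.381, 0.374 and 0.35 CPM in the EHP-101 libraries, 1.4, 1.29 and 1.84 CPM in those of Ang II alone and 2.0, 1.13 and 2.46 CPM in the Control libraries. Its EHP-101 values were below every library of the other groups (adjusted p = 0.0255 against Control; up to 0.0848 without Control replicate 1; unadjusted p = 0.000128 and adjusted p = 0.291 against Ang II). They rest on few reads, with 8 in the lowest library, so their closeness says little about the spread. Of 29 macrophage and monocyte markers Folr2 alone passed in edgeR, against 0.398% of all genes tested. At an unadjusted p under 0.05, 10 were lower and 2 higher, against 8.15% and 8.76% of all genes tested. The list had a median log2 fold change of -0.46. The markers summed to 603, 598 and 339 CPM in the EHP-101 libraries and 710.1, 852 and 612 CPM in the Control libraries. Whether Folr2 and Pla2g2d moved with the number of macrophages was not tested.

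Timd4, a receptor of self-renewing resident macrophages, had 1.86, 0.701 and 0.613 CPM in the EHP-101 libraries and 3.42, 3.39 and 3.46 CPM in the Control libraries (adjusted p = 0.0832). Of 17 genes of MHC class II presentation 0 passed in edgeR, with 7 lower and 1 higher at an unadjusted p under 0.05, against 8.15% and 8.76% of all genes tested. Cd74, the invariant chain, had 62.3, 55.7 and 58.5 CPM against 115, 74.1 and 73.1 CPM in Control (adjusted p = 0.192). Of 12 B cell markers 0 passed, 6 were lower at an unadjusted p under 0.05 (8.15% of all genes tested), and they summed to 24.9, 12.1 and 25.4 CPM in the EHP-101 libraries and 32.8, 33.4 and 28.7 CPM in the Control libraries. Of 24 cytokine and chemokine genes 0 passed, 4 were lower and none higher at an unadjusted p under 0.05, against 8.15% and 8.76% of all genes tested. DESeq2 called 2 of these cytokine genes lower, and 0 of the MHC class II genes and of the B cell markers. Of all 15336 genes tested it called 174 lower and 321 higher. Il6 had 0.381, 0.187 and 0.744 CPM in the EHP-101 libraries and 0.125, 0.215 and 0.167 CPM in the Control libraries, a few reads per library (adjusted p = 0.468).

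The lists of energy metabolism held no calls. Of 44 nuclear oxidative phosphorylation subunits 0 passed in edgeR, and 16 were lower and none higher at an unadjusted p under 0.05, against 8.15% and 8.76% of all genes tested. Their median log2 fold change was -0.43, and it was -0.07 without Control replicate 2. The EHP-101 libraries summed to 29641, 30253 and 27026 CPM and the Control libraries to 33947, 51189 and 31041 CPM. Of 32 fatty acid oxidation genes 0 passed, with 5 lower and 1 higher at an unadjusted p under 0.05, beside the same shares of all genes. The median was -0.25, and -0.14 without Control replicate 2. The 44 cytosolic ribosomal protein genes had a median of -0.27, which was 0.14 without Control replicate 2 and -0.50 without Control replicate 3, with 0 at an unadjusted p under 0.05. DESeq2 also called 0 genes of each of these 3 lists, beside 495 of all 15336 genes tested.

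The targets named for the drug and for the infusion were read too. Of 29 PPAR target genes 0 passed in edgeR, 3 were higher and none lower by unadjusted p under 0.05, near the 8.76% of all genes tested that were higher. The median log2 fold change was 0.01, and -0.10 to 0.06 with 1 library left out. DESeq2 called 1 PPAR target and 1 HIF pathway gene higher, beside 321 of all 15336 genes tested. Pparg itself had 10.7, 16.9 and 9.98 CPM in the EHP-101 libraries and 10.1, 15.1 and 10.6 CPM in the Control libraries (adjusted p = 0.869). Angptl4, a lipase inhibitor that PPAR receptors induce, had 27.5, 6.31 and 15.3 CPM against 10.8, 7.16 and 6.42 CPM in Control, with overlap (adjusted p = 0.383). Pdk4, which turns muscle from glucose to fat as fuel, had 657, 589 and 665 CPM in the EHP-101 libraries and 432, 291 and 291 CPM in the Control libraries, which did not overlap (adjusted p = 0.464). Of 26 HIF pathway genes 0 passed and 4 were higher at an unadjusted p under 0.05, against 8.76% of all genes tested. Vegfa had 356, 341 and 407 CPM in the EHP-101 libraries and 354, 333 and 345 CPM in the Control libraries (adjusted p = 0.812). Cnr2, the gene of CB2, had 0.719, 1.17 and 0.569 CPM against 1.46, 1.18 and 0.918 CPM in Control (adjusted p = 0.388). Agtr1a, the AT1 receptor, had 34.5, 30.3 and 28.5 CPM in the EHP-101 libraries and 39.2, 39.5 and 40.0 CPM in the Control libraries (adjusted p = 0.233), and Ace, the enzyme that makes Ang II, had 100.2, 179.5 and 125 CPM against 81.8, 64.3 and 90.4 CPM in Control (adjusted p = 0.117).

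**Figure D5:**
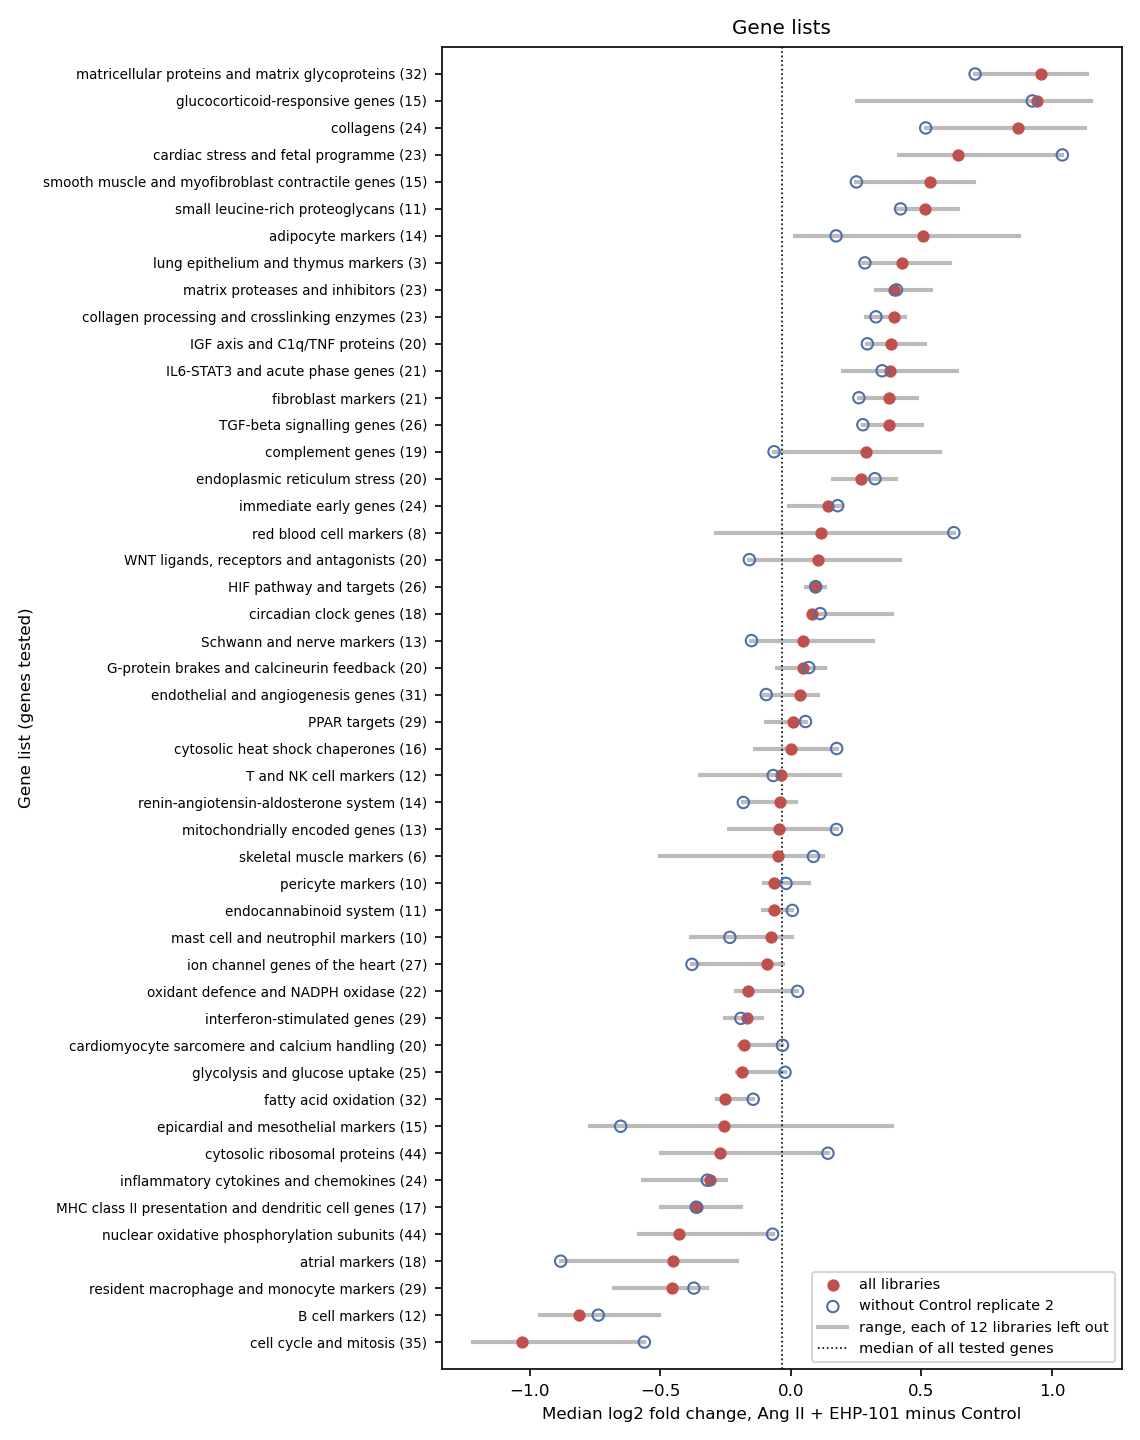
Median log2 fold change of EHP-101 over Control (horizontal axis) for each gene list (rows, with the number of genes tested); filled points use all libraries, open points leave out Control replicate 2, bars span the 12 fits that leave out 1 library, and the dotted line is the median of all tested genes at -0.03. Matricellular genes (0.96) and collagens (0.87) lie to the right and cell cycle genes (-1.03) to the left, and oxidative phosphorylation moves to -0.07 without Control replicate 2.

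Against the Ang II hearts, 0 of 15336 genes passed in edgeR, while 1108 (7.22%) had an unadjusted p under 0.05 and 16.8% had the 6 libraries apart. DESeq2 called 63 genes in that comparison. The comparisons of EHP-101 with Control and of Ang II with Control share the Control libraries, so their values are only set side by side here; Ang II against Control had 83 genes past the threshold (0.541%). For Cilp the log2 fold change over Control was 2.54 in EHP-101 hearts and 2.93 in Ang II hearts, for Postn 2.40 and 2.58, and for Lox 3.37 and 3.52. For Tnc it was 2.13 in EHP-101 hearts and 3.01 in Ang II hearts, and for Col3a1 0.95 and 1.89. For Myh7 it was 2.72 in EHP-101 hearts and 1.71 in Ang II hearts (adjusted p = 0.108 for Ang II against Control), and the unadjusted p of EHP-101 against Ang II was 0.0325. For Nmrk2 it was 1.41 in EHP-101 hearts and 0.85 in Ang II hearts, with an unadjusted p of 0.0105 between them. Mcm2 had -1.27 in EHP-101 hearts and -0.52 in Ang II hearts, with an unadjusted p of 0.00497 between them, and Pla2g2d had -2.34 and -0.31. Chp2 had -1.12 in EHP-101 hearts and -0.21 in Ang II hearts, with an unadjusted p of 0.000218 between them. The EHP-101 libraries that put genes past the threshold against Control are also in the contrast with Ang II. A small unadjusted p there is thus favoured by the choice of genes. The adjusted p of EHP-101 against Ang II was 0.621 for Myh7, 0.479 for Nmrk2, 0.409 for Mcm2, 0.291 for Pla2g2d and 0.307 for Chp2 (edgeR). None of these differences between the infused groups passed after adjustment over all genes in edgeR.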

How the data were processed

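The authors deposited raw read counts per gene for 12 heart libraries, 3 in each of 4 groups set by the sample titles. Per the labels' protocols, 300 ng of RNA per sample were poly(A)-selected with an unstranded TruSeq kit and read as single ends of 50 bp. Per the submitters' processing notes, fastp 0.20.0, HISAT2 2.1.0, featureCounts 2.0.0 and edgeR 3.30.0 were used with GRCm38. The deposited counts held no normalised values.

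The analysis used edgeR 4.0.16 in R 4.3.3. After filterByExpr, which left 15336 genes, and TMM scaling, all 12 libraries entered a robust quasi-likelihood fit in which each group had its own mean. Its common biological coefficient of variation was 0.189. The EHP-101 minus Control contrast was put to a two-sided quasi-likelihood F test. Its p-values were adjusted by Benjamini-Hochberg over every gene tested, and 0.05 was the threshold. SE is the absolute log2 fold change divided by the square root of F, so it restates the test. CPM were computed with TMM-adjusted library sizes, and each SD covers 3 libraries. An exact permutation test of 3 against 3 cannot reach a p below 0.1 and was not used. Positions and shared exons came from GENCODE M21 and promoters from RefSeq.

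Named genes were the 12 higher and 12 lower with the largest change past the threshold and a mean of at least 1 CPM, the 8 smallest p in each direction, up to 4 per list, and a set named whatever its values. The other genes past the threshold were added after their values were seen. Members and the 48 gene lists were chosen with earlier results of these data known. Symbols of 2 list genes were updated to match the table. Results of 2 genes are not reported here.

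Equal replicate numbers in the titles were checked for pairing: the deviations of same-numbered EHP-101 and Control libraries from their group means correlated at 0.22, 0.23 and 0.10 over genes, and EHP-101 replicate 1 with Control replicate 3 at 0.11. All 3 same-numbered pairs exceed 0.1, so values with the replicate block are printed where the block changes a call; this pairing comes from the data and not from the labels. No 2 replicates within the EHP-101 or the Control group agreed within sampling noise. The fit was checked on simulated counts. Alternatives were DESeq2 1.42.0, limma-voom (limma 3.58.1) with and without quality weights, scaling by RLE or by library size alone, no filter, a mean of at least 5 CPM, the 6 libraries alone, the block, an atrial score as covariate, and each library left out.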

Additional observations from a re-analysis of the deposited data

How the results depend on the processing

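The main fit gave 61 genes, 46 higher and 15 lower (75.4% higher). RLE factors gave 64, and limma-voom and a mean of at least 5 CPM gave 45 each. Library size alone gave 22 genes, 21 higher and 1 lower (95.5% higher), and the 6 libraries alone gave 14, all higher. The replicate block gave 36, DESeq2 495 (321 higher, 174 lower), voom with quality weights 477 (309 higher, 168 lower), no filter on low counts 158 (112 higher, 46 lower) and the atrial score as covariate 300 (221 higher, 79 lower). Leaving out 1 library gave 5 to 62 genes. DESeq2 and the quality weights kept all 61, limma-voom 45, library size alone 21, the block 32 and the 6 libraries alone 12. The fit without Control replicate 2 kept 16 of them. The left-out fits and the fit of 6 also held fewer samples. The cause of these shifts was not tested. Against Ang II the count was 0 in edgeR, 63 in DESeq2 and 10 without the filter.

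Of 4934 values of named genes in these alternatives, 4205 kept their direction and their side of the threshold, 594 fell short of it, 135 newly passed and 0 reversed. Of 1055 list medians 41 moved by more than the spread between replicates. With the block, 29 of the 61 calls were lost, and the adjusted p of each is given beside the gene. Depth limits the genes below 1 CPM in either group, such as Sprr1a, Cthrc1 and Nrip3 in Control hearts and Pla2g2d, Helt and Crocc2 in EHP-101 hearts.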

Other observations

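EHP-101 replicate 2 had the highest level of several genes. Fkbp5, a co-chaperone that glucocorticoids induce, had 36.0, 239 and 27.2 CPM in the EHP-101 libraries and 15.8, 19.0 and 11.4 CPM in the Control libraries (adjusted p = 0.161, edgeR). Zbtb16, a transcription factor that they also induce, had 75.5, 192 and 35.3 CPM in the EHP-101 libraries and 17.8, 9.69 and 23.2 CPM in the Control libraries (adjusted p = 0.0815). EHP-101 replicate 2 was the highest for both, and for Mt2, a metallothionein, which had 21.9, 167 and 28.3 CPM in the EHP-101 libraries and 9.81, 23.5 and 12.6 CPM in the Control libraries. Of 15 glucocorticoid-responsive genes 0 passed in edgeR and 2 in DESeq2, which called 495 of all 15336 genes tested. Of the 15, 5 had a higher level at an unadjusted p under 0.05, against 8.76% of all genes tested. Their median log2 fold change was 0.94, and 0.25 without EHP-101 replicate 2.

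Per2, a repressor of the circadian clock, had 30.2, 27.6 and 20.6 CPM in the EHP-101 libraries, 6.95, 6.40 and 6.22 CPM in those of Ang II alone and 7.06, 3.39 and 15.2 CPM in the Control libraries. It did not pass against Control (adjusted p = 0.128, edgeR), and the unadjusted p against Ang II was 0.000672. The labels give no time of day. Apln, a peptide hormone of endothelial cells, had 5.29, 7.15 and 11.5 CPM in the EHP-101 libraries and 22.2, 38.2 and 21.4 CPM in the Control libraries, which did not overlap (adjusted p = 0.0997).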
